A study of Mus musculus with 6 samples.

Results

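The 47 genes described here encode the initiation, elongation and termination factors of cytosolic protein synthesis in the mouse. The list names them by symbol and applies no threshold to measured values, and all 47 were found by Ensembl identifier among the 53465 genes of the deposited count table. Fragments of mRNA shielded by ribosomes were sequenced from ID8, a cancer cell line derived from mouse ovarian surface epithelium. The series asks how translation differs when NAT10, the enzyme that makes N4-acetylcytidine in RNA, is depleted with a guide RNA. There were 3 libraries titled WT, which the series design describes as control guide (sgNC), and 3 titled KO, described as Nat10 guide (sgNat10). All cells received cycloheximide (100 µg/mL for 2 minutes) before lysis, which holds ribosomes on the message. The labels do not say whether the replicates are separate cultures or whether the KO cells are a single clone, so each p-value covers only how these libraries vary, which may be technical.

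Protein synthesis begins when eIF2 carries the initiator tRNA to the small ribosomal subunit, which is also held by eIF1, eIF1A, eIF5 and the large eIF3 complex. The eIF4 factors bind the cap of the mRNA and unwind its leader, and eIF5B then joins the large subunit. During elongation eEF1A delivers aminoacyl-tRNA and eEF2 moves the ribosome along. At a stop codon eRF1 and eRF3 release the chain, and ABCE1 splits the ribosome for reuse. Several of these messages, above all those of the elongation factors, belong to the 5′ TOP class, which starts with a C and a tract of pyrimidines and is held under control of mTORC1 through LARP1 and the 4E-BPs.

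A count here reflects both how much of a message is present and how many ribosomes sit on it, and no translation efficiency was computed because matched RNA-seq was not used here. In a bulk library, fewer cells carrying a message and fewer fragments per cell cannot be told apart. Library totals ran from 1687466 to 3126208 counts. The modal count, the most frequent gene count between 8 and 150 after smoothing, was 15 to 39 in WT and 42 to 60 in KO, and its part in the comparisons was not tested beyond a fit to counts divided by it. A count divided by the modal count is given in modal equivalents. By that measure 28 of the 47 factors averaged at least 10 equivalents over the 6 libraries and 7 averaged under 3. The 8 markers of ovarian surface epithelium all had over 3 counts in total, though Krt7 was at 0 in all but 1 library, and their summed level ran from 8229 to 8637 CPM in WT and 7797 to 8233 CPM in KO. The sum joins markers that differed in opposite directions: Msln had 1162, 1748 and 1361 counts in the WT libraries against 4361, 4215 and 4521 in those titled KO, and Krt8 had 413, 346 and 293 against 1, 74 and 251. Lgals1 and Upk3b were also higher and Krt18 lower in every KO library by count. Wt1 overlapped, with 376, 374 and 163 counts in WT against 236, 583 and 538 in KO. Krt19 had 6547, 8495 and 7576 counts in the WT libraries against 5660, 5277 and 7093 in KO. These counts are not scaled for depth. Library totals were 1687466 to 2148715 in WT and 2234305 to 3126208 in KO, so counts read high in KO beside scaled levels. In modal equivalents the totals were 46442 to 112498 in WT and 48572 to 60506 in KO. The modal counts did not overlap between the groups, so their part cannot be told apart from that of the label. The part of these marker differences in the results on the factors was not tested. All 6 leukocyte markers and 4 of 5 endothelial and fibroblast markers had at most 3 counts over all libraries. Nat10 itself had 168, 128 and 292 counts in the WT libraries against 315, 133 and 445 in those titled KO (log2 fold change -0.07, SE 0.48, edgeR quasi-likelihood adjusted p = 1). The libraries labelled KO are therefore named by their label and not by a measured loss of Nat10.

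The start regions of 4 factors are printed because they show factor genes with a long and with a short pyrimidine run near the RefSeq transcription start. Each line holds 30 bases of GRCm38.p6, 5′ to 3′ on the gene's strand, from RefSeq, with the longest run of C and T that begins with C in capitals. The run was searched on that strand in a window of 20 bases before and 50 bases after the start. Eif3f is at chr7:108934403-108934432 (plus strand), Eef1b2 at chr1:63176851-63176880 (plus), Eif3m at chr2:105017018-105017047 (minus) and Gspt1 at chr16:11254276-11254305 (minus).
Eif3f: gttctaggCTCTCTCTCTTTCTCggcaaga
Eef1b2: tgcgtccgagcgCTTTCgttcaactccggc
Eif3m: CTCTCTTTTCCggtcggcgtgtttctggat
Gspt1: tacgggtggtagcgagaggtcaattCTCTC
The run of Eif3m begins 20 bases before the RefSeq start, at the upstream edge of the window, and ends before that start, so it lies outside the message as RefSeq annotates it. The run was 15 bases long in Eif3f, 11 in Eif3m and 5 in Eef1b2 and Gspt1. That of Gspt1 ends at the downstream edge of the window, so the lengths for Eif3m and Gspt1 are minimums. A run of at least 8 bases was present in 10 of the 36 factors with a RefSeq entry, against 20.0% of the 27025 genes with an entry. RefSeq starts can lie some bases away from the start used in a given cell, so a short run in this window does not say that the message lacks a tract.

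The first 28 coding bases of 5 factors, about the length of a footprint, are printed to show how far a single footprint can name its gene. They were read from GENCODE M21 transcripts, with the start codon in capitals.
Eif4g2: GTGgagagtgcgattgcagaagggggtg
Eef1b2: ATGggattcggagacctgaaaacccctg
Eef1g: ATGgcggctgggaccctgtacacatacc
Eif2s2: ATGtccggggacgagatgatttttgatc
Eif4a1: ATGtctgcgagtcaggattctcgatcca
The stretches of Eif4g2 and Eef1b2 occurred in 0 other annotated genes. That of Eif2s2 occurred in 1 other gene, and those of Eef1g and Eif4a1 in 2 others each. Eif4g2, the eIF4G-related protein DAP5, opens with GTG in place of ATG in this annotation.

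None of the translation factors passed edgeR's test after correction over all genes. Of the 47 factors 46 passed the filter on low counts, and 0 had an edgeR quasi-likelihood adjusted p under 0.05, where 0.402% of all 8200 tested genes did. At an unadjusted p under 0.05 there were 8 factors, 6 lower and 2 higher in KO, and DESeq2 called 1. These 8 are 17.4% of the 46, against 6.49% of all tested genes. Among genes averaging at least 100 CPM the shares were 24.2% of 33 factors and 17.3% of 1740 genes. The median log2 fold change of the 46 factors was -0.22, against -0.02 over all tested genes. Of the 46 factors 30 were negative (65.2%), against 51.0% of all tested genes. DESeq2 called 2.5% of all genes. With DESeq2's size factors, library totals, no count filter and the replicate number as a block in edgeR, 0.39%, 0.524%, 0.711% and 0.463% of all genes and 0 factors were called. On counts divided by the modal count, which leaves 968 genes to test, 4 of 27 factors were called (Eif3m, Eif2s2, Gspt1 lower, Eef2 higher) and 11.4% of all genes. Leaving out each library in turn also gave 0 called factors, while the share of all genes called was 0.333%, 0.0683% and 0.0674% without WT replicates 1, 2 and 3, and 0.169%, 0.224% and 0.203% without KO replicates 1, 2 and 3. Over genes of at least 100 CPM the medians were -0.21 for the factors and -0.06 for all, and 63.6% of the factors and 56.6% of all were negative.

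**Figure D1:**
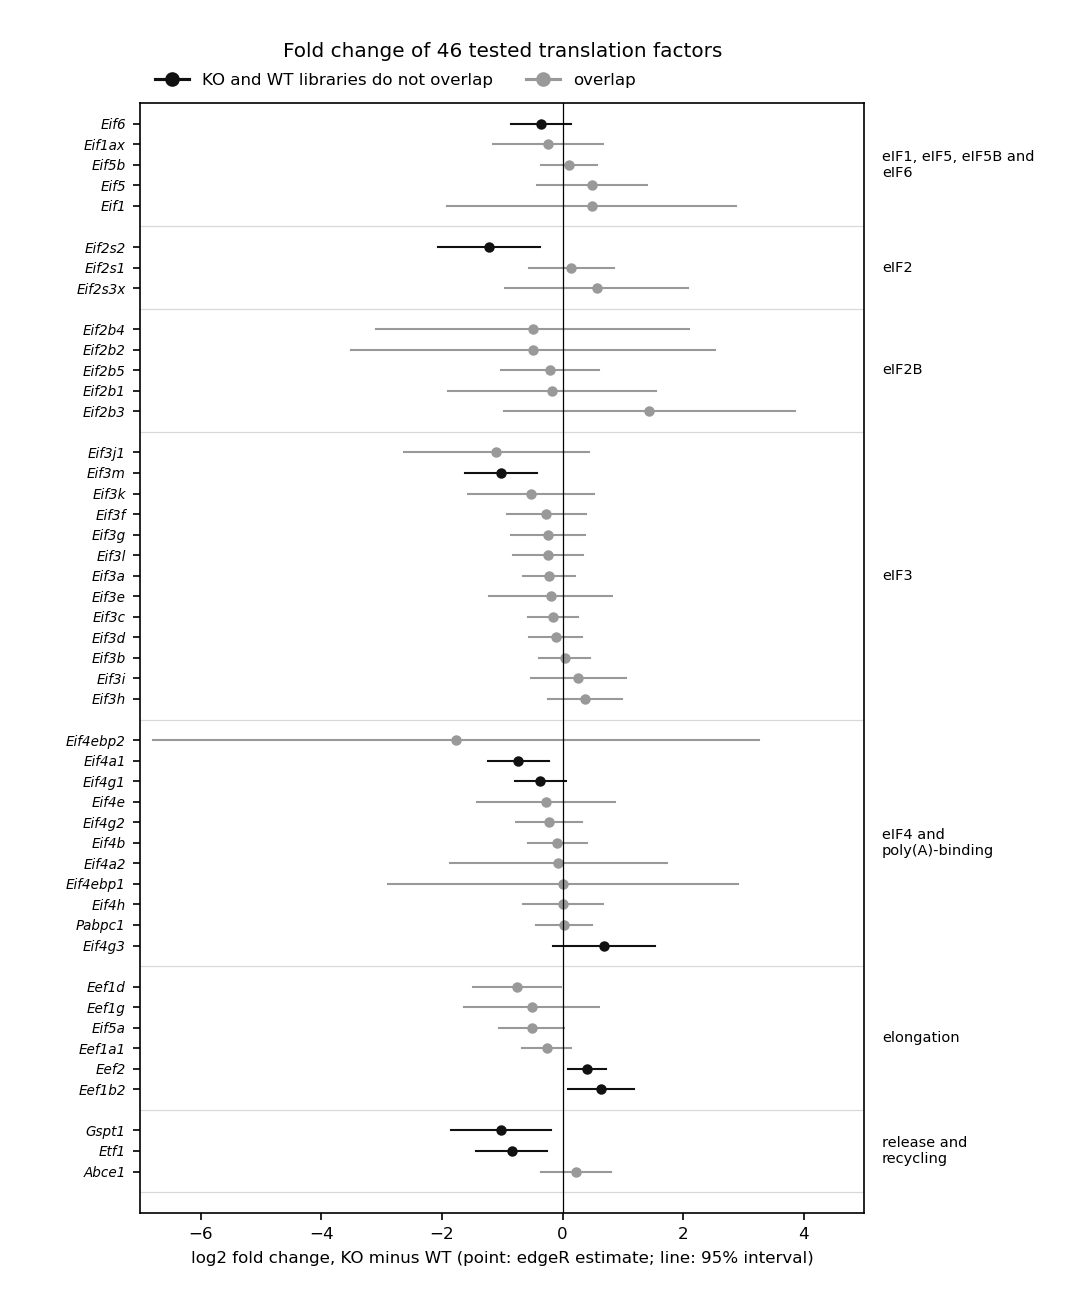
Log2 fold change, KO minus WT, of the 46 tested translation factors (points) with 95% intervals (lines), grouped by complex. Black marks the 10 factors whose KO and WT libraries do not overlap; the intervals of Eif3m, Eif2s2, Gspt1, Etf1, Eif4a1, Eef1d, Eef1b2 and Eef2 leave out 0, and no factor passed in this edgeR fit after adjustment over all genes (DESeq2 called Eif3m).

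Every KO library lay below every WT library for 7 factors (15.2% of 46): Eif6, Eif2s2, Eif3m, Eif4a1, Eif4g1, Etf1 and Gspt1. That was so for 7.93% of all tested genes. Among genes averaging at least 100 CPM it was so for 21.2% of the 33 factors and 13% of all. Every KO library lay above every WT library for 3 factors (6.52%), Eif4g3, Eef1b2 and Eef2, against 6.94% of all tested genes, and at 100 CPM or more for 9.09% of the factors against 9.6% of all. The upward share is at the background. At an adjusted p under 0.05 edgeR called 1.67% of the genes averaging at least 100 CPM and 0 of the 33 factors at that level. The 47 factors together took 1.84% to 2.26% of all counts in the WT libraries and 1.85% to 2.02% in KO, so the groups overlapped in the total.

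**Figure D2:**
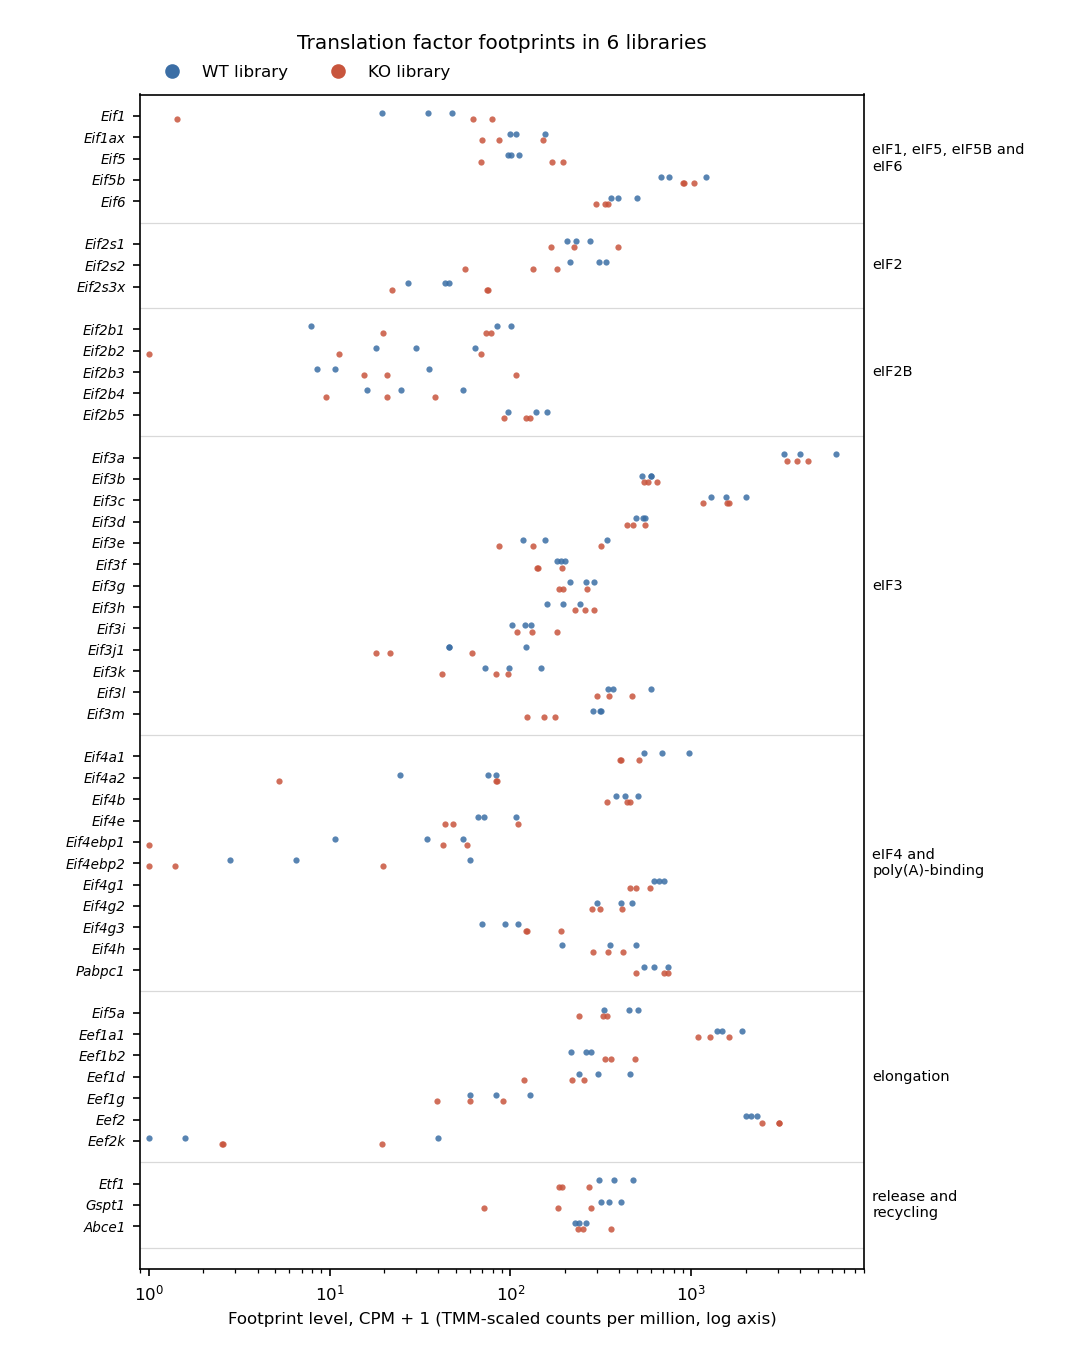
Footprint level of each of the 47 translation factors in the 3 WT and 3 KO libraries (points), in CPM plus 1 on a log axis, grouped by complex. CPM also scales with message length, so heights are not compared between factors. Eif1, Eif4a2, the eIF2B subunits other than Eif2b5, the 4E-BPs and Eef2k are among those that scatter widely between libraries. The groups overlap for most factors.

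The group of eIF1, eIF1A, eIF5, eIF5B and eIF6 had no member that passed. Eif5b, the GTPase that joins the large subunit, had 1196, 753 and 674 CPM in WT and 895, 1034 and 904 CPM in KO. Its groups overlapped (log2 fold change 0.11, SE 0.22). Eif6, which keeps free large subunits from joining small ones, had 499, 394 and 357 CPM in WT and 295, 345 and 332 CPM in KO. Each KO value of Eif6 was lower than each WT value, yet its 95% interval ran from -0.86 to 0.14, and the log2 fold change went from -0.36 to -0.21 without WT replicate 1. Eif5, the GTPase activator of eIF2, had 110.7, 96.4 and 100.0 CPM in WT and 193, 169 and 67.3 CPM in KO. KO replicate 3 was the lowest of the 6 and the other KO libraries were the highest (0.48, SE 0.43; 0.205 without KO replicate 1 and 0.82 without KO replicate 3). Eif1ax, which occupies the decoding site with the scanning ribosome, averaged 119.7 and 101 CPM. Eif1, which enforces start codon choice, is the least certain of these: it had 1 count in KO replicate 2 and 199 and 196 in the other KO libraries, and 98.1% of its coding 28-mers occur in other annotated genes.

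Within eIF2 the beta subunit was lower in every KO library and the alpha and gamma subunits overlapped between the groups. The subunit wholly below was 33.3% of the 3, where 7.93% of all tested genes were so (13% at 100 CPM or more). Eif2s2, the beta subunit that binds eIF5, had 337, 212 and 306 CPM in WT and 180, 54.8 and 132 CPM in KO. All KO libraries were lower, with KO replicate 2 lowest (log2 fold change -1.22, SE 0.40, edgeR unadjusted p = 0.0078, adjusted p = 0.42). The alpha subunit Eif2s1, whose phosphorylation limits initiation under stress, had 229, 204 and 273 CPM in WT and 392, 167 and 223 CPM in KO. The highest and the lowest of these 6 values of Eif2s1 were both KO libraries (0.15, SE 0.33). Eif2s3x, the gamma subunit that binds GTP and tRNA, had 42.6, 44.5 and 26.0 CPM in WT and 21.1, 73.2 and 73.8 CPM in KO. KO replicate 1 was the lowest of these and the groups overlapped (0.57, SE 0.71). Per kb of coding length the levels in WT were 249 CPM for Eif2s1 and 286 CPM for Eif2s2 but 26.6 CPM for Eif2s3x. Of the coding 28-mers of Eif2s3x 95% also occur in another annotated gene, against 61.7% for Eif2s1 and 85.1% for Eif2s2; the part of this in the level was not tested.

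The 5 subunits of eIF2B, the exchange factor that reloads eIF2 with GTP, were thinly covered. Their WT levels ran from 12.7 CPM per kb of coding length (Eif2b3) to 69.1 (Eif2b1), and their summed level was 278 ± 81.1 CPM over the WT and 263 ± 26.0 over the KO libraries (SD, n = 3). The catalytic subunit Eif2b5 had 137, 158 and 96.0 CPM in WT and 120.2, 90.8 and 127 CPM in KO, and the groups overlapped (-0.21, SE 0.38). Eif2b3, a gamma subunit of the catalytic part, had 9.73, 34.5 and 7.52 CPM in WT and 14.4, 107 and 19.9 CPM in KO. Its higher KO mean rests on KO replicate 2, without which the log2 fold change went from 1.44 to 0.0049. Eif2b1, Eif2b2 and Eif2b4 had log2 fold changes of -0.18, -0.49 and -0.49 with standard errors of 0.81 to 1.41. None of the 5 coding sequences shares a 28-mer with another annotated gene.

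The 13 eIF3 subunits form the scaffold that bridges the small subunit to the mRNA. Of them 10 had negative and 3 positive fold changes (median -0.22, range -1.10 to 0.38), and 0 were called. The negative share was 76.9%, against 51.0% of all tested genes and 56.6% of those averaging at least 100 CPM. Of the negative subunits, Eif3a, Eif3c, Eif3e and Eif3l turned positive when a single library was left out. Eif3m had the smallest p of the 46 factors. Its levels were 317, 311 and 284 CPM in WT and 176, 152 and 122 CPM in KO. The highest KO value lay far below the lowest WT value, and both groups were tight (304 ± 17.3 against 149.9 ± 26.9 CPM; SD, n = 3). Its log2 fold change was -1.02 (SE 0.28, edgeR unadjusted p = 0.0026, adjusted p = 0.25). With each library left out in turn it lay between -1.15 and -0.90. DESeq2 called it (adjusted p = 0.0064; over the 12 alternative settings adjusted p ran from 0.0064 to 0.77). Of the coding 28-mers of Eif3m 65.0% occur in other annotated genes; Gm7658 holds 64.6% and had 0 counts, and Gm6321 holds 1.9% and had 1 count.

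Eif3a, the largest subunit, had 6322, 3997 and 3257 CPM in WT and 3392, 4413 and 3851 CPM in KO. The highest value belonged to WT replicate 1 and the rest of the libraries overlapped (-0.22, SE 0.20). Eif3h was the highest of the positive subunits in fold change (0.38, SE 0.29), and stood at 0.24 without WT replicate 2. It had 242, 158 and 194 CPM in WT and 258, 288 and 227 CPM in KO. Eif3b, the subunit that contacts eIF3i and eIF3g, stood at 0.03 (SE 0.20). Eif3c, Eif3d, Eif3e, Eif3f, Eif3g and Eif3l had fold changes from -0.27 to -0.11, Eif3i stood at 0.26 (SE 0.37), Eif3k at -0.52 (SE 0.49) and the loosely bound Eif3j1 at -1.10 (SE 0.72). The counts of Eif3j1 are uncertain, since its close copy Eif3j2 holds 99.7% of its coding 28-mers. Eif3a and Eif3c stood out in level per kb, at 1122 and 588 CPM in WT, while the other 11 subunits lay between 89.2 and 321. Set against Eif3b per kb, Eif3a was 4.67 ± 1.46 times as high in WT and 3.98 ± 0.76 in KO (SD, n = 3). None of the coding 28-mers of Eif3a occur in another annotated gene.

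**Figure D3:**
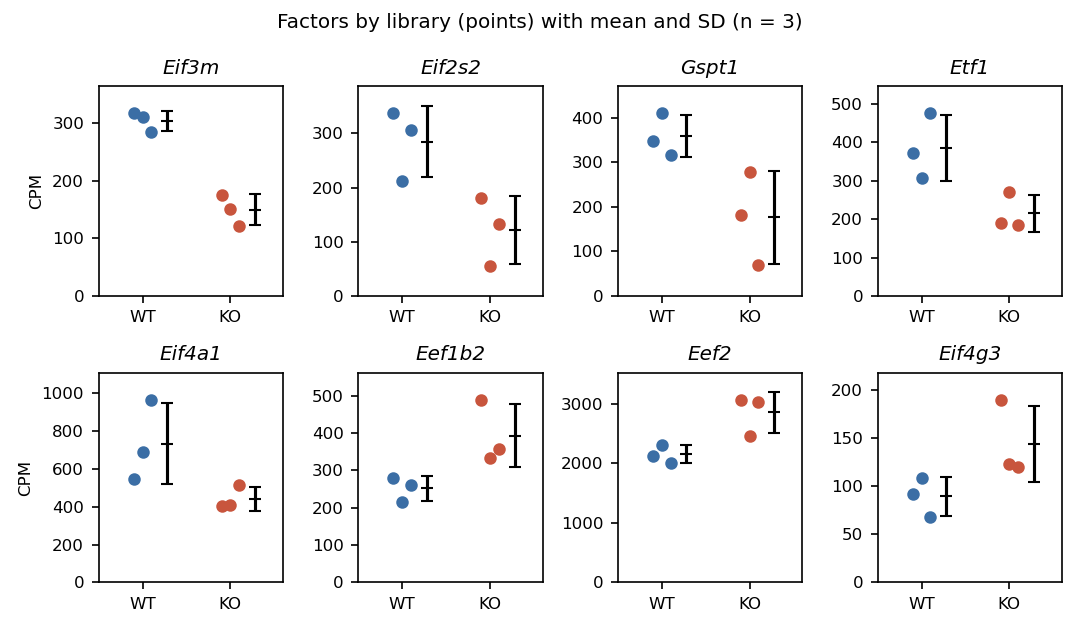
CPM of 8 factors in each WT and KO library (points), with the mean and SD of each group (n = 3), on axes that start at 0. Eif3m, Eif2s2, Gspt1, Etf1 and Eif4a1 are lower and Eef1b2, Eef2 and Eif4g3 higher in all 3 KO libraries; Eif3m has the smallest p of the 46 tested factors.

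Among the eIF4 factors the helicase Eif4a1 and the scaffold Eif4g1 were lower and Eif4g3 was higher in every KO library. Those wholly below were 18.2% of the 11 and those wholly above 9.09%. Of all tested genes 7.93% and 6.94% were so (13% and 9.6% at 100 CPM or more). Of the 11 factors 0 passed the test. Eif4a1, the helicase that unwinds mRNA leaders, had 547, 690 and 966 CPM in WT and 404, 407 and 514 CPM in KO. All KO libraries were lower, and WT replicate 3 was the highest by a wide margin (-0.73, SE 0.24, edgeR unadjusted p = 0.0076, adjusted p = 0.42), and without that library the log2 fold change was -0.49. Eif4g1, the scaffold that joins cap, helicase and eIF3, had 657, 623 and 708 CPM in WT and 593, 496 and 454 CPM in KO. It too was separated, with a smaller difference (-0.37, SE 0.20). The related scaffold Eif4g3 had 91.8, 108 and 68.2 CPM in WT and 190.0, 123 and 120.1 CPM in KO (0.69, SE 0.40, edgeR adjusted p = 0.97; 0.45 without KO replicate 1). Eif4g2, used in cap-independent initiation, stood at -0.23 (SE 0.26).

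Pabpc1, which binds the poly(A) tail and eIF4G, had 618, 543 and 743 CPM in WT and 744, 493 and 705 CPM in KO. Its groups overlapped almost fully (0.03, SE 0.22). Eif4b and Eif4h, both helpers of the helicase, stood at -0.09 (SE 0.23) and 0.01 (SE 0.31). Eif4e, the cap-binding protein, averaged 80.4 ± 22.1 CPM over the WT and 66.2 ± 37.1 over the KO libraries (SD, n = 3), a log2 fold change of -0.28 (SE 0.54). Eif4ebp1, an inhibitor of eIF4E, had 16, 107 and 58 counts in the WT libraries against 0, 96 and 181 in KO. Eif4ebp2, of the same family, had 3, 11 and 101 counts against 1, 44 and 0, where a single library held most counts of each group. A change of the 4E-BPs was not detectable at this depth, with 95% intervals from -2.90 to 2.91 for Eif4ebp1 and from -6.79 to 3.25 for Eif4ebp2. Eif4a2, the second helicase gene, stood at -0.07 (SE 0.84) and had 10 counts in KO replicate 2 against 212 and 270 in the other KO libraries.

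Eef2 and Eef1b2 were higher in every KO library and the other tested elongation factors overlapped between the groups. Those wholly above were 33.3% of the 6 tested, where 6.94% of all tested genes were so (9.6% at 100 CPM or more). Eef2, the translocase, had 2131, 2313 and 2012 CPM in WT and 3066, 2463 and 3038 CPM in KO. Every KO library was higher, though KO replicate 2 lay close to WT replicate 2 (0.41, SE 0.15, edgeR unadjusted p = 0.015, adjusted p = 0.51). Eef1b2, the exchange factor that reloads eEF1A with GTP, had 279, 215 and 261 CPM in WT and 489, 333 and 356 CPM in KO. It was also separated (0.64, SE 0.26, edgeR unadjusted p = 0.024, adjusted p = 0.57). Eef1d, the second exchange subunit, had 237, 302 and 456 CPM in WT and 218, 117 and 255 CPM in KO. There the groups overlapped, because KO replicate 3 exceeded WT replicate 1 (-0.75, SE 0.34, unadjusted p = 0.042, edgeR adjusted p = 0.71). Without WT replicate 3 the log2 fold change was -0.46 and without KO replicate 2 it was -0.48.

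Eef1a1, which delivers tRNA and had the highest WT level per kb of the 47 factors (1138 ± 198 CPM, within the spread of Eif3a at 1122 ± 396), had 1472, 1893 and 1376 CPM in WT and 1605, 1259 and 1087 CPM in KO. Its groups overlapped (-0.26, SE 0.19). Eif5a, the hypusine-bearing factor that helps stalled ribosomes, averaged 428 ± 89.9 CPM over the WT and 301 ± 55.5 over the KO libraries (SD, n = 3), a log2 fold change of -0.51 (SE 0.25, edgeR adjusted p = 0.83). Eef1g, the structural subunit of the exchange complex, stood at -0.51 (SE 0.53). In WT Eef1g had 67.9 CPM per kb against 371 for Eef1b2 and 392 for Eef1d, its partners in the complex, and 95.9% of its coding 28-mers occur in other annotated genes. Eef2k, the kinase that inhibits eEF2, was left out by the filter on low counts, with 64, 0 and 1 counts in the WT libraries against 4, 43 and 5 in KO.

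Both release factors were lower in all 3 KO libraries and the recycling factor was not. Those wholly below were 66.7% of the 3 factors, where 7.93% of all tested genes were so (13% at 100 CPM or more). Etf1, the eRF1 protein that reads stop codons, had 372, 306 and 475 CPM in WT and 191, 269.7 and 184 CPM in KO. Its log2 fold change was -0.84 (SE 0.27, edgeR unadjusted p = 0.0083, adjusted p = 0.43), and it kept its sign in each of the 12 alternative settings. Gspt1, the eRF3 GTPase that works with eRF1, had 348, 409.7 and 317 CPM in WT and 181, 279 and 70.4 CPM in KO. The KO libraries spread widely, with KO replicate 3 lowest (-1.02, SE 0.39, edgeR unadjusted p = 0.020, adjusted p = 0.55); without it the log2 fold change was -0.64. Abce1, the ATPase that splits ribosomes after release, had 226, 239 and 261 CPM in WT and 236, 359 and 250.4 CPM in KO, and its groups overlapped (0.22, SE 0.27). The coding sequence of Etf1 shares no 28-mer with another annotated gene and that of Gspt1 8.8%.

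The balance between partner factors was measured as a ratio of their levels per kb in each library. For Etf1 over Abce1 the ratio was 2.26, 1.75 and 2.50 in WT and 1.11, 1.03 and 1.01 in KO. For Eif2s2 over Eif2s1 it was 1.40, 0.99 and 1.06 in WT and 0.44, 0.31 and 0.56 in KO. These groups did not overlap in either ratio. For Eef1b2 over Eef1d the ratio was 1.47, 0.89 and 0.72 in WT and 2.80, 3.54 and 1.75 in KO. For Eef2 over Eef1a1 it was 0.78, 0.66 and 0.79 in WT and 1.03, 1.05 and 1.51 in KO. Here too the groups stood apart. Eif4a1 over Eif4g1 overlapped, at 4.33 ± 1.05 in WT and 3.45 ± 0.91 in KO (SD, n = 3), as did Eif3a and Eif3c over Eif3b. The 7 ratios were chosen after the values of the genes were seen, so they are given without a test. The numerators Etf1, Eif2s2, Eef1b2 and Eef2 were already separated alone, so their ratios partly restate those differences. How often other gene pairs separate was not computed.

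**Figure D4:**
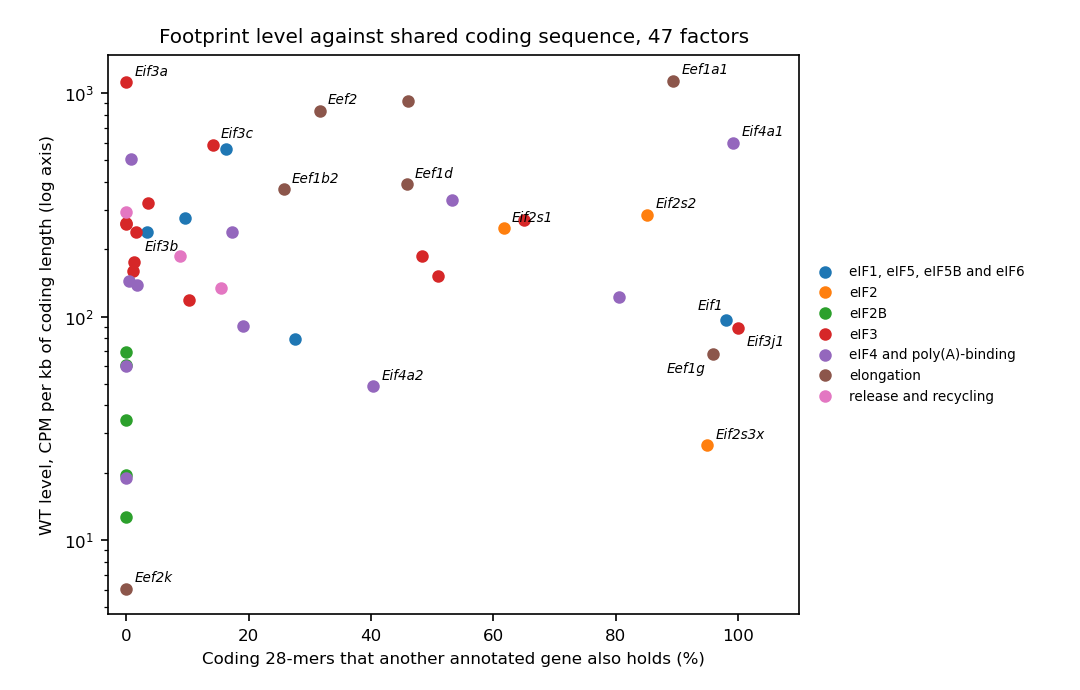
WT level of the 47 factors in CPM per kb of coding length (log axis) against the percentage of their coding 28-mers that occur in another annotated gene, coloured by complex. Eef1g, Eif2s3x, Eif1 and Eif3j1 combine a share of 95% or more with low levels, while Eif4a1 and Eef1a1 lie high at 99.2% and 89.4%. Eef2k, Eif2b3 and Eif4g3 lie lower still with no shared 28-mers.

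Sequence sharing bears on how far these levels can be compared. In 12 factors most of the coding 28-mers occur in another annotated gene and in 12 none do. Low levels per kb at high sharing were seen for Eef1g, Eif2s3x, Eif1 and Eif3j1, but Eif4a1 (601 CPM per kb, 99.2%) and Eef1a1 (1138 CPM per kb, 89.4%) were among the highest. Lower WT levels than in those 4 were seen with no sharing, for Eef2k (6.05 CPM per kb), Eif2b3 (12.7) and Eif4g3 (18.9). The genes that share at least 10% of the 28-mers of Eif4a1 held 239 counts over the 6 libraries, against 7594 for Eif4a1. For Eef1a1 these were 138 and 19147, and for Eef1g 33 and 979. The counting of reads with several matches was not given in the sources used here. Its part in the levels was not tested.

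The 10 factors known as 5′ TOP messages are Eef1a1, Eef1b2, Eef1d, Eef1g, Eef2, Eif3e, Eif3f, Eif3h, Eif4b and Pabpc1. They had a median log2 fold change of -0.14, with 4 higher and 6 lower, against -0.22 for the other 36 tested factors. Eef2 and Eef1b2 were the members whose KO libraries all lay above WT, and 0 lay wholly below. That is 20% of the 10, where 6.94% of all tested genes lay wholly above and 7.93% wholly below (9.6% and 13% at 100 CPM or more). Grouped by the pyrimidine run near the RefSeq start, the median was -0.25 for the 10 factors with a run of at least 8 bases and -0.16 for those without. Eif3m, with a run of 11 upstream of its RefSeq start, and Eif3f, with 15, stood at -1.02 and -0.27. Eef1b2 and Gspt1, each with a run of 5, stood at 0.64 and -1.02.

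Of 64 other genes that control or resemble these factors, 52 were tested, 22 higher and 30 lower (median -0.12), and 0 were called by edgeR. At an unadjusted p under 0.05 there were 6 (11.5% of 52, against 6.49% of all tested genes), and DESeq2 called 2, where it called 2.5% of all genes. Of the 52, 13.5% lay wholly below WT in KO and 7.69% wholly above, against 7.93% and 6.94% of all tested genes. Among the kinases and phosphatase subunits of eIF2 alpha, 3 of 6 were higher and 3 lower. Eif2ak2, the kinase PKR, had 82.7, 57.0 and 36.4 CPM in WT and 137, 158 and 79.1 CPM in KO, and Ppp1r15b, which directs dephosphorylation of eIF2 alpha, had 87.6, 74.5 and 39.9 CPM in WT and 99.1, 105 and 143 CPM in KO. Of this pair Ppp1r15b was higher in every KO library (0.78, SE 0.46; 0.52 without WT replicate 3) and Eif2ak2 overlapped.

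The mTORC1, S6 kinase and MNK list had 8 of 14 higher. Mknk2, a kinase of eIF4E, had 17.6, 14.0 and 30.1 CPM in WT and 78.4, 66.4 and 88.4 CPM in KO (1.92, SE 0.66, edgeR adjusted p = 0.47). Larp1, the binding protein of TOP messages, had 125.3, 132 and 246 CPM in WT and 65.5, 78.8 and 93.7 CPM in KO (-1.08, SE 0.40, edgeR adjusted p = 0.55; -0.70 without WT replicate 3). Both were separated, in opposite directions. Mknk2 averaged only 2.92 modal equivalents.

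Paralogs and accessory factors had 8 of 19 tested higher. Ddx3x, a helicase of initiation, had 1287, 1418 and 1535 CPM in WT and 1084, 1025 and 1095 CPM in KO (-0.40, SE 0.16, edgeR adjusted p = 0.59). Paip2, which blocks Pabpc1, had 23.1, 69.0 and 19.7 CPM in WT and 0.39, 6.85 and 0.62 CPM in KO (-3.81, SE 1.83, edgeR adjusted p = 0.80). Its log2 fold change was -6.03 without KO replicate 2, and it averaged only 1.73 modal equivalents. Of the enzymes that modify eIF5A and eEF2, 5 of 6 tested were lower; those with the smallest unadjusted p were Dph2 of diphthamide synthesis (-2.04, SE 0.78) and Dph7 of the same pathway (-2.01, SE 1.42). Mitochondrial translation factors were lower in 5 of 7 (71.4%), beside the 51.0% of all tested genes. Tufm, the mitochondrial counterpart of eEF1A, had 108, 114 and 106 CPM in WT and 27.3, 32.5 and 19.5 CPM in KO. That was the smallest p among the 52 tested (-2.05, SE 0.52, edgeR unadjusted p = 0.0014, adjusted p = 0.16), and DESeq2 called it. Guf1, a mitochondrial factor related to bacterial LepA, averaged 15.6 and 41.6 CPM and its groups overlapped, at only 1.92 modal equivalents on average.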

How the data were processed

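Ribosome-protected fragments of ID8 cells were measured in 6 libraries, grouped by title. Per the labels' protocols, lysates were digested with RNase I, adapters were trimmed and reads of 25 to 34 nt retained. Matches to rRNA and tRNA were discarded (Bowtie); HISAT2 mapped the remainder to GRCm38 and Bowtie mapped it to transcripts. Per the submitters' processing notes, featureCounts and DESeq2 were used too. The annotation, the strand setting and the treatment of duplicates and of multiple matches were not given in the sources used here. The authors deposited whole-number counts per Ensembl gene, not normalized. Symbols, coordinates and coding sequences came from GENCODE M21 on GRCm38, and 53360 of 53465 identifiers matched.

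All genes were fitted with edgeR's quasi-likelihood test (edgeR 4.0.16, R 4.3.3; robust, TMM, filterByExpr), and p-values were adjusted by Benjamini-Hochberg over the 8200 tested. Levels are TMM-scaled CPM. Intervals are 95% and include the spread between libraries. Level per kb divides by the coding length of the principal transcript. Shared 28-mers were searched in GENCODE M21 transcripts. The edgeR and DESeq2 fits were run on simulated counts with known changes, using the spread estimated from these data. The pyrimidine-run search was checked on made-up strings. The other steps were not tested in that way. Alternatives were DESeq2 1.42.0, DESeq2's size factors or library totals in edgeR, no count filter, the replicate number as a block, counts divided by the modal count, and leaving out each library. Factors and lists were chosen with earlier results of these data known. Values in every library were given for the best covered factor of each complex and its smallest p in each direction, and for Gspt1, Eef1b2, Eif4g1 and Eef1a1, chosen after their values were seen. Regulators are the 2 smallest p of each list.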

Additional observations from a re-analysis of the deposited data

How the results depend on the processing

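Fits of edgeR to the deposited counts called 0 factors under each alternative. DESeq2 called 1 factor (Eif3m, where 2.5% of all genes were called) and 2 of the other genes (Tufm and Mknk2). On counts divided by the modal count 4 of 27 tested factors were called (Eif3m, Eif2s2, Eef2 and Gspt1), where 11.4% of 968 genes were; fewer genes are tested there. There the median of eIF2 was -0.395 over Eif2s1 (0.30) and Eif2s2 (-1.09) alone, since Eif2s3x was not tested, and eIF2B could not be fitted. Library totals moved the median over all genes from -0.02 to 0.09. Over all tested genes the deviations of same-numbered libraries from their group means were almost uncorrelated (r = -0.0167, -0.00258 and -0.00666). Libraries of a group vary widely (common coefficient of variation 0.99), so this check cannot tell whether a number marks a shared batch. With the replicate block 0 factors and 38 genes were called, against 33. Of 46 factors 29 kept their direction in every setting that tested them, of 12. Signs turned with the replicate block for Eif1 (-0.0839), Eif2b1 (0.0758) and Eif4ebp1 (-1.16), and with library totals for Eif4a2 (0.0174), Eif4b (0.0163) and Nat10 (0.0265). Without single libraries the log2 fold changes that turned sign ran from -0.0836 to 1.07 for Eif1, -0.0479 to 0.404 for Eif5b, -0.261 to 0.389 for Eif2s1, -0.707 to 0.318 for Eif2b1, -2.79 to 0.163 for Eif2b2, -1.12 to 0.172 for Eif2b4, -0.411 to 0.0994 for Eif3a, -0.0313 to 0.0797 for Eif3b, -0.300 to 0.0268 for Eif3c, -0.896 to 0.395 for Eif3e, -0.430 to 0.0557 for Eif3l, -0.464 to 0.483 for Eif4a2, -0.182 to 0.0295 for Eif4b, -0.653 to 0.602 for Eif4ebp1, -6.50 to 0.791 for Eif4ebp2, -0.284 to 0.356 for Eif4h, -0.0747 to 0.197 for Pabpc1 and -0.353 to 0.352 for Nat10. The cause of these turns was not tested.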
